A study of Homo sapiens with 19 samples.

Results

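Ribose methylation of ribosomal RNA was compared between Kasumi-1 cells depleted of fibrillarin (FBL) that re-expressed the mutant named FBLTri and the same knockdown cells that re-expressed wild-type FBL. The comparison used 4 of the 19 RiboMethSeq libraries of the study, chosen by their titles, 2 with FBLTri and 2 with wild-type FBL. Kasumi-1 is an established acute myeloid leukaemia cell line. All 120 deposited sites were compared, comprising 47 in 18S rRNA, 71 in 28S rRNA and 2 in 5.8S rRNA.

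Fibrillarin transfers the methyl group in box C/D small nucleolar ribonucleoproteins. In these particles a guide RNA (SNORD) pairs with rRNA and places fibrillarin at the ribose to be methylated, while NOP56, NOP58 and SNU13 hold the particle together. Many guides are cut from introns of ribosomal protein genes or of non-coding host genes such as GAS5 and SNHG1. The study asked what loss of FBL or of a single guide, SNORD127, does to rRNA methylation in these leukaemia cells, and whether wild-type or mutant FBL restores it.

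FBLTri cells carried an FBL knockdown induced with doxycycline at 100 ng/ml and the FBLTri mutant, 2 libraries. FBLQua cells carried that knockdown and the other mutant, 2 libraries. Wild-type FBL cells carried the same knockdown and wild-type FBL, 2 libraries. For orientation, 2 libraries of FBL knockdown with an empty vector and 2 of control knockdown with an empty vector were used, and all of these cells received doxycycline. The 2 FBL and 2 control knockdown libraries without a vector served for the size of the knockdown loss. They also entered the fits through the shared spread, and the choice of positions outside the list. The labels do not say which residues FBLTri and FBLQua change, nor whether replicates came from separate cultures, so the p-values rest on a spread between libraries that could be wholly technical. The column names of the FBLTri libraries contain Dual and those of the FBLQua libraries contain Tri, and the titles were followed. Fragment ends of rRNA hold no FBL transcript and no cell marker, so the knockdown, the level of the re-expressed proteins and the cell type could not be checked. A lower protein level and a less active protein therefore cannot be told apart for FBLTri.

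The measurement is score C. A methylated ribose protects its backbone bond from alkaline hydrolysis, so few fragments end next to it, and score C is 1 minus the end count there over the weighted mean count of 6 positions on either side. At a methylated site a score near 1 is read as nearly all rRNA molecules carrying the methyl group. A score of 0 means that the count equals or exceeds its surroundings. Of 365 positions outside the list, picked for high counts and a mean score of at least 0.5, 45 averaged 0.9 or more. A high score alone therefore does not show methylation. Each score averages over all rRNA molecules of a culture, so full methylation in part of the cells and partial methylation in all cannot be told apart. Sites are named by rRNA and position in the older 28S numbering, with no genome coordinates.

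The FBLTri libraries held 12978236 and 13130866 end counts and the wild-type FBL libraries 11627924 and 14054606, within the 5533150 to 18835537 of the series. In these 4 libraries the mean flanking count of a site ran from 95.1 to 33690, with a median of 1372. The 95% counting interval of a score had a median half-width of 0.0184, and 23 sites exceeded 0.05 in at least 1 library. Reads carried no molecular identifiers, and the intervals cover counting error alone. Replicate 2 of control knockdown with empty vector had 20.8% of its counts at 1 position of 28S rRNA, and it enters the comparison with wild-type FBL only through the shared spread.

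Score C was lower with FBLTri over most of the rRNA. By limma at an adjusted p under 0.05, 75 of the 120 sites (62.5%) were lower with FBLTri than with wild-type FBL and 0 (0%) were higher, and 0 were higher at an unadjusted p under 0.05 as well. Both FBLTri libraries lay below both wild-type FBL libraries at 96 sites (80%) and above them at 3 (2.5%). The differences at the 75 called sites ran from -0.593 to -0.0111 with a median of -0.118. They reached at least 0.1 in size at 44 sites, 0.2 at 15 and 0.3 at 3. Without replicate 2 of control knockdown with empty vector in the fit 75 sites were also called lower, 74 of them the same.

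The mean over the 120 sites was 0.716 and 0.715 in the FBLTri libraries, against 0.808 and 0.811 in the wild-type FBL libraries. Group means were 0.715 ± 0.000539 and 0.809 ± 0.00232 (SD, n = 2 each), a difference of -0.0941. An exact two-sided permutation test gave p = 0.333, the smallest p that the 6 arrangements of these libraries allow. The number of sites at 0.9 or more was 33 with FBLTri, 33 with FBLQua, 71 with wild-type FBL, 36 with empty vector and 88 in control knockdown cells with empty vector. FBLTri cells thus had about as many listed sites at 0.9 or more as knockdown cells with the empty vector.

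The median score of the listed sites was 0.826 with FBLTri and 0.923 with wild-type FBL. When a constant was added to each library so that these medians were equal, 24 sites were called lower and 42 higher, so a moderately lower site is lower on the deposited scale but not when set against the median site. At 365 rRNA positions outside the list, with high counts and scores, the medians were 0.672 with FBLTri and 0.672 with wild-type FBL, a difference of 0.00016. The median of these other positions thus did not share the shift in the median of the listed sites. Equal medians do not show that the single positions were equal.

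**Figure D1:**
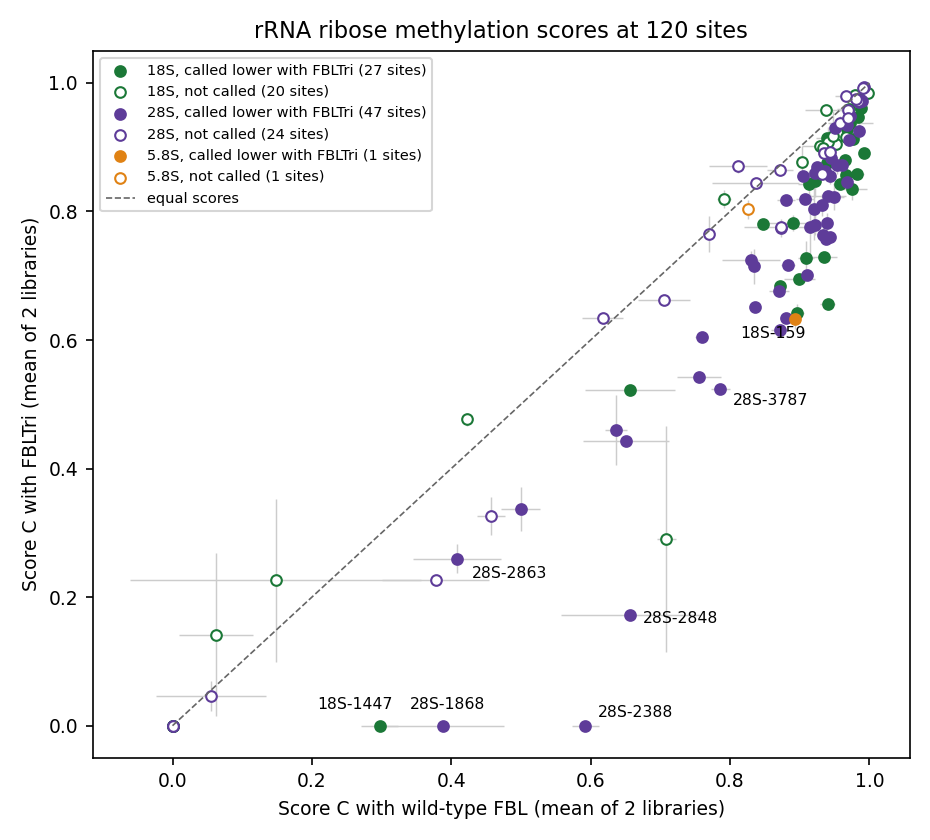
Mean score C with FBLTri (vertical axis) against mean score C with wild-type FBL (horizontal axis) at the 120 sites, with SD bars over 2 libraries. Filled points are the 75 sites called lower with FBLTri by limma, open points the 45 not called, and the dashed line marks equal scores. Most points with a wild-type FBL score above 0.5 lie below the line, and 28S-2388, 28S-1868 and 18S-1447 lie at 0 with FBLTri.

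A few sites had no detectable protection with FBLTri but a clear score with wild-type FBL. 28S-2388 is guided by SNORD68, which lies in RPL13, a ribosomal protein gene. Its score was 0 and 0 with FBLTri and 0.579 and 0.606 with wild-type FBL. It was the largest difference of the comparison, at -0.593 (SE 0.0248, 95% interval -0.649 to -0.536, adjusted p = 1.98e-07 by limma). In the counts, 14451 and 20639 fragment ends lay next to this site with FBLTri, where the flanks averaged 13956 and 19428. With wild-type FBL there were 4794 and 8250 ends, where the flanks averaged 11381 and 20951. The dip in end counts that marks the methylated ribose was present in both wild-type FBL libraries and in neither FBLTri library.

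**Figure D2:**
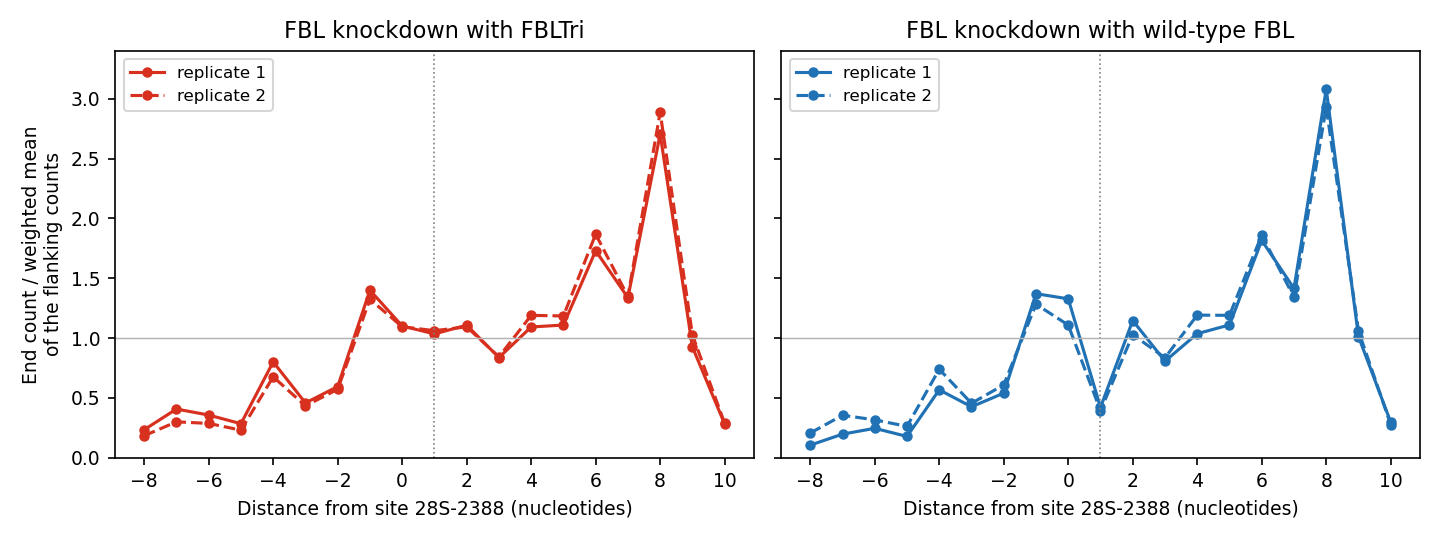
End counts divided by the weighted mean of the flanks (vertical axis) at distances of -8 to 10 nucleotides from 28S-2388 (horizontal axis), with FBLTri on the left and wild-type FBL on the right. Lines are the 2 libraries of each group and the dotted line marks the position read by the score, where the FBLTri libraries stand at about the flank mean and the wild-type FBL libraries well below it.

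28S-1868 is guided by SNORD48, which lies in the non-coding host gene SNHG32. It scored 0 and 0 with FBLTri, against 0.450 and 0.328 with wild-type FBL. The groups did not overlap, and the difference was -0.389 (SE 0.0400, 95% interval -0.480 to -0.297, adjusted p = 3.85e-05 by limma). 18S-1447 is the site of SNORD127, the guide that the study also knocked out. Its score was 0 and 0 with FBLTri and 0.316 and 0.279 with wild-type FBL, a difference of -0.297 (SE 0.0666, adjusted p = 0.00414 by limma). In control knockdown cells with empty vector it was 0.577 and 0.756, so the wild-type FBL libraries also lay below those cells.

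A score of 0 hides how far a count lies above its surroundings. 28S-2402, with the guides SNORD143 and SNORD144, was at 0 in all 4 libraries and had no difference. Computed from the counts and not set to 0, its score was -0.550 and -0.599 with FBLTri and -0.247 and -0.296 with wild-type FBL. On that scale the groups were apart by -0.303 (adjusted p = 0.000749 by limma). Sites at 0 in both libraries numbered 9 with FBLTri, of which 4 have a named guide, and 6 with wild-type FBL, of which 1 has.

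28S-2848 had the second largest called difference. Its guide, SNORD50A, lies in the non-coding host gene SNHG5. The score was 0.172 and 0.172 with FBLTri and 0.728 and 0.587 with wild-type FBL. The FBLTri libraries were nearly equal and the wild-type FBL libraries spread more, with a difference of -0.485 (SE 0.0605, 95% interval -0.623 to -0.347, adjusted p = 0.000125 by limma). FBLQua libraries, at 0.462 and 0.319, and empty vector libraries, at 0.344 and 0.411, also lay above both FBLTri libraries here.

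In 18S rRNA the largest called difference after 18S-1447 was at 18S-159, guided by SNORD45A and SNORD45C from introns of RABGGTB. Scores were 0.662 and 0.65 with FBLTri, against 0.933 and 0.948 with wild-type FBL. The difference was -0.285 (SE 0.0109, 95% interval -0.309 to -0.260, adjusted p = 1.98e-07 by limma). Nearby 18S-174, with SNORD45C as its guide, showed a larger difference that was not called. It scored 0.415 and 0.166 with FBLTri and 0.699 and 0.718 with wild-type FBL, a difference of -0.418 (SE 0.215, adjusted p = 0.123 by limma). The groups did not overlap, but in the fit the site had a wide spread, to which replicate 2 of control knockdown with empty vector contributed a score of 0 against 0.825 in replicate 1. Without that library the adjusted p by limma was 0.00329. 18S-172, guided by SNORD45A and SNORD45B, had 0.965 and 0.954 with FBLTri and 0.958 and 0.985 with wild-type FBL, and these overlap.

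**Figure D3:**
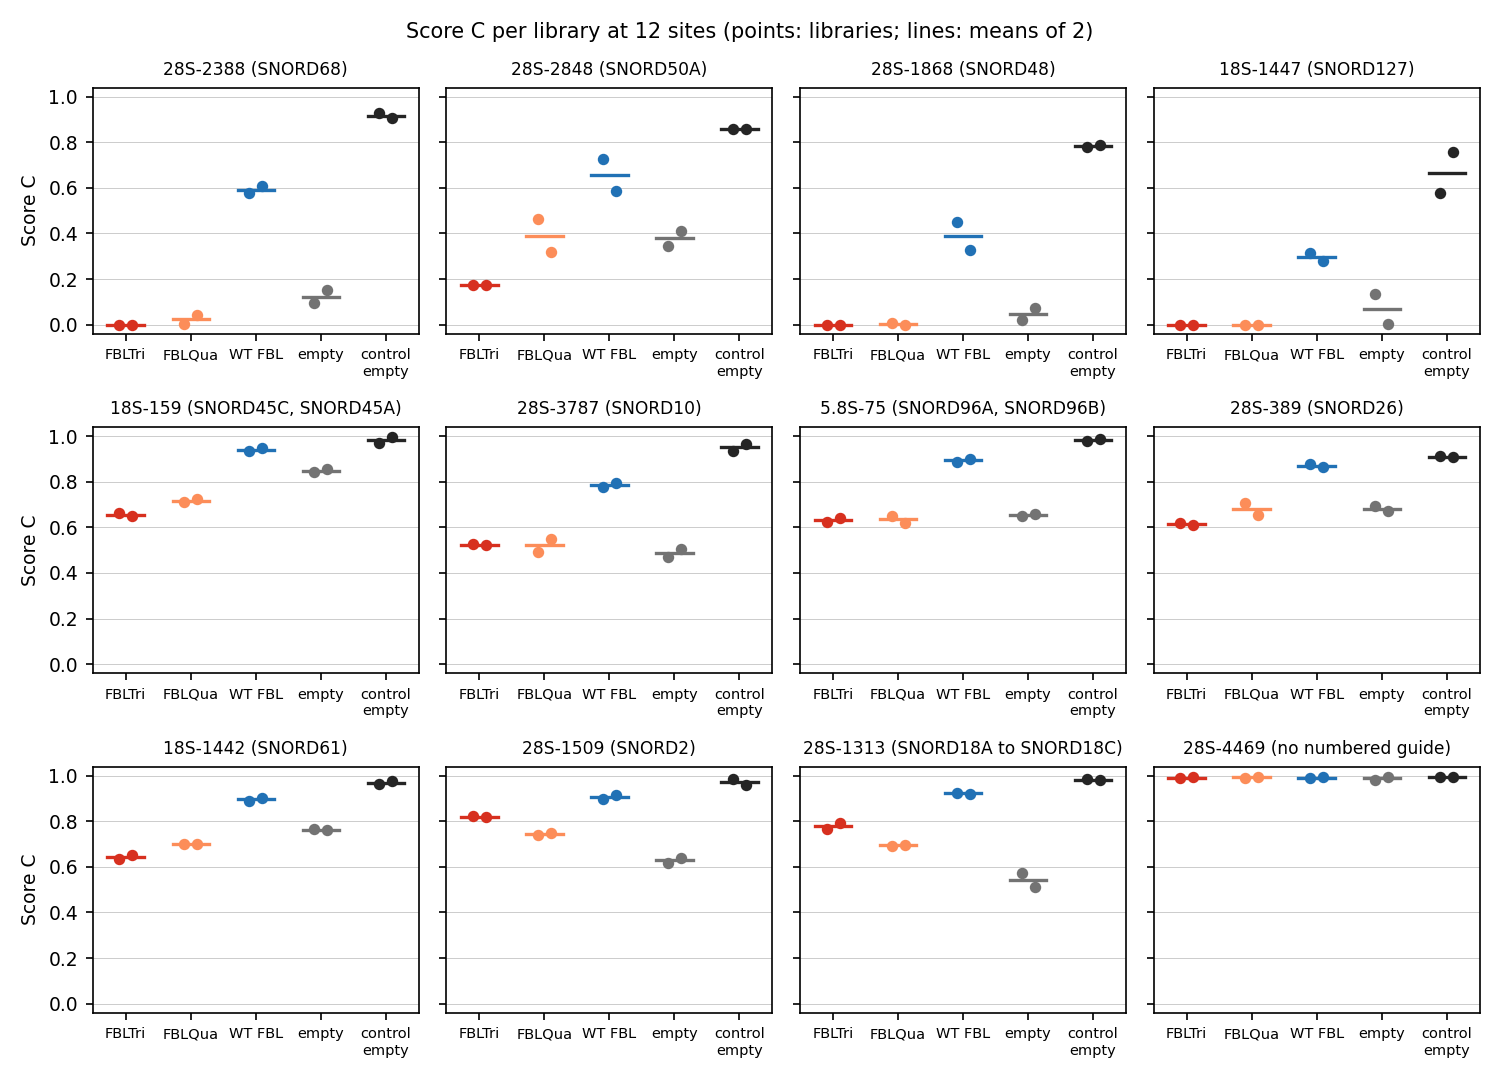
Score C (vertical axis, 0 to 1) in each library at 12 sites, for FBLTri, FBLQua, wild-type FBL, FBL knockdown with empty vector, and control knockdown with empty vector. Points are libraries and lines are means of 2. Red FBLTri points lie below the blue wild-type FBL points in every panel but 28S-4469, where all 5 groups lie close to 1.

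Further sites kept intermediate scores with FBLTri. 28S-3787, whose guide SNORD10 lies in EIF4A1, the gene of a translation initiation helicase, scored 0.526 and 0.523 with FBLTri and 0.776 and 0.796 with wild-type FBL. 18S-1442, whose guide SNORD61 lies in RBMX, had 0.633 and 0.652 with FBLTri and 0.890 and 0.903 with wild-type FBL. At both the groups lay far apart relative to their replicates, with differences of -0.262 and -0.254 and adjusted p-values by limma of 2.29e-05 and 1.98e-07. Differences of -0.213, -0.210 and -0.208 followed at 28S-1303 (SNORD21), 28S-1747 (SNORD73A) and 28S-2774 (SNORD99). 18S-799 (SNORD105) differed by -0.205 and 18S-797, only 2 nucleotides from it, by -0.182. 28S-3848 (SNORD53), 28S-4276 (SNORD41), 28S-3723 (SNORD87), 28S-3878 (SNORD12) and 28S-4020 (SNORD102) differed by -0.193, -0.183, -0.176, -0.170 and -0.163, all called by limma. The call of 28S-1303 was lost without replicate 1 or 2 of FBLTri or replicate 1 of wild-type FBL, its adjusted p by limma reaching 0.140 over the alternatives. Of the 25 largest called differences 21 kept their call in every alternative tried, and 28S-1303, 28S-2811, 28S-3723 and 28S-4020 lost it in at least 1.

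Guides were also grouped by the gene that contains them. The counts below stand beside 62.5% of sites called lower over all 120 and 70.8% over the 106 with a named guide, and no host gene was tested against the others. GAS5, a non-coding RNA whose introns carry many box C/D guides, holds the guides of 10 sites, of which 8 were lower with FBLTri, with a median difference of -0.0547 against -0.0642 over all 120 sites. 18S-166 (SNORD44) had 0.857 and 0.858 with FBLTri, against 0.989 and 0.976 with wild-type FBL. 28S-4032 (SNORD75) had 0.845 and 0.846 with FBLTri, against 0.968 and 0.969 with wild-type FBL. Replicates lay close together and the groups did not overlap at either site. 28S-391 (SNORD81), which lies 2 nucleotides from 28S-389, and 28S-2350 (SNORD76) differed by -0.122 and -0.0875 and were called. SNHG1, another non-coding host, holds the guides of 8 sites, of which 5 were lower, with a median of -0.0138. They ranged from 28S-389 (SNORD26), at 0.620 and 0.612 with FBLTri and 0.879 and 0.863 with wild-type FBL, to 18S-27 (SNORD27), at 0.962 and 0.952 with FBLTri and 0.916 and 0.960 with wild-type FBL. 28S-389 differed by -0.255 (adjusted p = 1.26e-05 by limma), whereas 18S-27 overlapped between the groups and was not called (difference 0.0193). Without replicate 2 of wild-type FBL, the difference at 18S-27 was 0.0412 and was called higher (adjusted p = 0.00759 by limma).

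Guides in ribosomal protein genes gave the following counts. RPL13A holds the guides of 5 sites, and 4 were lower, with 18S-1326 (SNORD33) at -0.115, 18S-1328 (SNORD32A) at -0.0857, 28S-1511 at -0.0619 and 28S-2824 (SNORD34) at -0.0546, the last not called without replicate 2 of wild-type FBL (-0.0501). RPL7A holds the guides of 4, and 3 were lower, with 28S-2338 (SNORD24) at -0.180, 28S-2352 (SNORD24) at -0.119 and 18S-668 (SNORD36A and SNORD36B) at -0.109. The call of 28S-2352 was lost when any 1 of the 4 libraries was left out, on a logit scale and with flanks of 2 positions, its adjusted p by limma reaching 0.576 over the alternatives. The fourth, 28S-3703 (SNORD36C), had a difference of -0.0443 and was not called. Both RPL23A sites were lower, with 18S-116 (SNORD42A and SNORD42B) at 0.688 and 0.701 with FBLTri and 0.883 and 0.915 with wild-type FBL. 18S-121 (SNORD4A and SNORD4B), 5 nucleotides away, differed by -0.0257. Its call was lost without replicate 1 or 2 of FBLTri (-0.0305 and -0.0209) or without wild-type FBL replicate 2 (-0.0140). A fit of only the compared groups and a logit scale lost it too. 28S-1313, the site of SNORD18A to SNORD18C in RPL4, had 0.768 and 0.791 with FBLTri, against 0.925 and 0.919 with wild-type FBL. 18S-462, the site of SNORD14A and SNORD14B in RPS13, had 0.783 and 0.779 with FBLTri, against 0.847 and 0.847 with wild-type FBL. Both were called, with differences of -0.143 and -0.0661. With library medians made equal both calls were lost. That of 18S-462 was also lost on a logit scale (adjusted p = 0.399 by limma) and with equal medians of unlisted positions.

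RACK1, a scaffold protein of the small ribosomal subunit, holds guides of 3 sites, all lower, with a median of -0.184. They are 5.8S-75 (SNORD96A), 28S-2811 and 28S-2802 (both SNORD95). 5.8S-75 had 0.622 and 0.642 with FBLTri and 0.889 and 0.898 with wild-type FBL, a difference of -0.261 (SE 0.0163, adjusted p = 2.27e-06 by limma). The other 5.8S site, 5.8S-14 (SNORD71), had 0.814 and 0.792 with FBLTri and 0.831 and 0.820 with wild-type FBL and was not called (adjusted p = 0.472 by limma). NOP56, itself a core protein of the box C/D particle, holds the guides of 3 sites, of which 2 were lower. 18S-99 (SNORD57) had 0.691 and 0.676 with FBLTri and 0.868 and 0.875 with wild-type FBL. 18S-1288 (SNORD110) was lower by a small step of -0.0421, while 18S-517 (SNORD56), at 0.986 and 0.982 with FBLTri and 0.999 and 0.998 with wild-type FBL, was not called, though it was called lower in a fit of only the compared groups (adjusted p = 0.0249 by limma).

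In the deposited list 16 guides have 2 or more sites, 23 sites in all. SNORD68 guides 28S-2388, with its difference of -0.593, and also 18S-428, a site chosen for mention after its values were seen. At 18S-428 the score averaged 0.843 with FBLTri and 0.913 with wild-type FBL, a difference of -0.0695 (95% interval -0.104 to -0.0345, adjusted p = 0.00375 by limma). SNORD50A guides 28S-2848 and 28S-2863, where the differences were -0.485 and -0.149 with 95% intervals of -0.623 to -0.347 and -0.259 to -0.0388. 28S-2863 had 0.244 and 0.276 with FBLTri and 0.453 and 0.364 with wild-type FBL, and its call was lost without replicate 1 or 2 of FBLTri (-0.133 and -0.165) or replicate 1 of wild-type FBL (-0.104). For both guides the 95% intervals of the site pair do not overlap, and the difference between the sites itself was not tested. They also do not overlap for SNORD45A, at -0.285 (18S-159, -0.309 to -0.260) and -0.0119 (18S-172, -0.0384 to 0.0147). The same holds for SNORD30, at -0.0111 (18S-1383, -0.0185 to -0.00365) and -0.0882 (28S-3804, -0.132 to -0.0448). 18S-1383 too was chosen for mention after its values were seen. Pairs that lay closer together included -0.184 (28S-2811) and -0.166 (28S-2802) for SNORD95, and -0.0857 (18S-1328) and -0.0619 (28S-1511) for SNORD32A.

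By molecule, 27 of the 47 sites of 18S rRNA were lower with FBLTri, as were 47 of 71 of 28S and 1 of 2 of 5.8S. Median differences were -0.0421 in 18S and -0.0875 in 28S. Within 18S, 14 of 23 sites up to position 670 and 13 of 24 above it were lower. Within 28S, the counts were 11 of 15 up to position 2000, 14 of 17 from there to 3500, 13 of 20 from there to 4100 and 9 of 19 above 4100, the end that holds the peptidyl transferase centre, where peptide bonds form. Medians in these 4 regions were -0.0987, -0.119, -0.0930 and -0.0327. Lower sites were thus found in every region, with the largest median between 2000 and 3500 and the smallest above 4100. These shares stand beside 62.5% over all sites, and no region was tested against another. Of the 44 sites with another listed site within 6 nucleotides, whose scores share flanking counts, 30 were lower, against 45 of the 76 others.

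**Figure D4:**
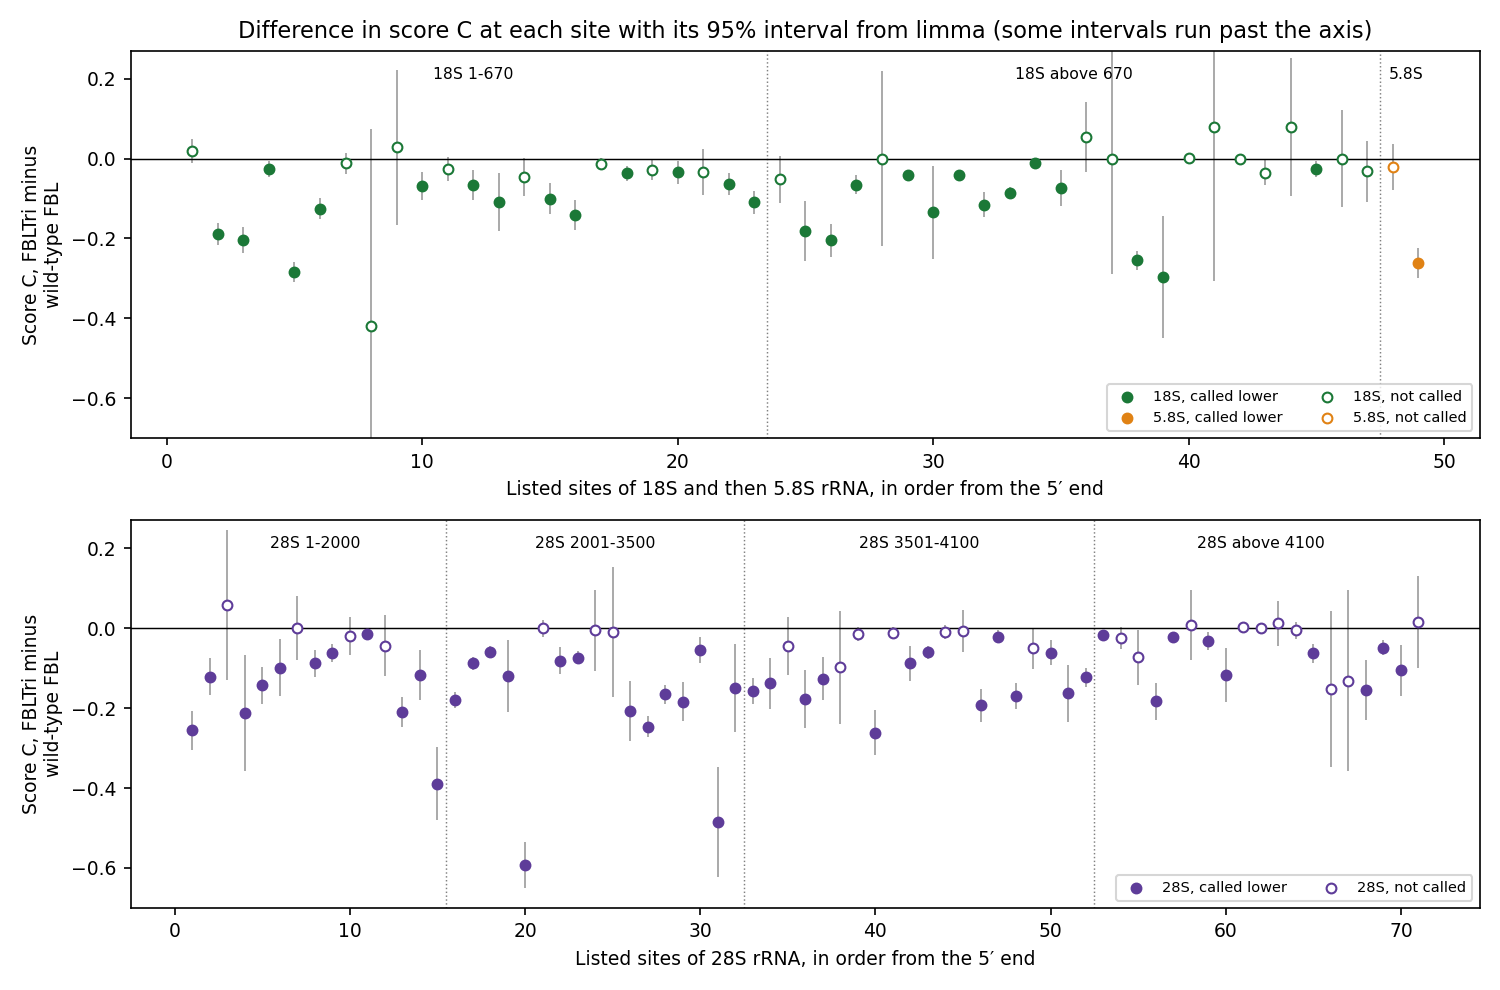
Difference in score C, FBLTri minus wild-type FBL (vertical axis), at each site in order from the 5' end (horizontal axis), with 18S and 5.8S rRNA in the upper panel and 28S rRNA in the lower. Bars are 95% intervals from limma, filled points are sites called lower, open points are not called, and dotted lines separate regions. The called sites run along the whole length of both rRNAs, with the lowest point, -0.593, at 28S-2388.

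The sites that were not called fell into 3 kinds. All 75 called sites were among the 106 with a named guide, and 0 of the 14 sites with a guide marked as predicted or unknown was called. These 14 had a median score of only 0.105 with wild-type FBL and 0.227 in control knockdown cells with empty vector. Most of them thus had little room for a lower score. The 3 sites where both FBLTri libraries lay above both wild-type FBL libraries are also among these 14. The 106 include 28S-4469 and 28S-2351, whose guide entry is SNORD without a number and which count as sites with 1 guide. Of the 31 guided sites not called, 18 still averaged 0.9 or more with FBLTri, and 11 of these 0.95 or more. The other 13 were below 0.9, where 18S-174, 28S-4560 (SNORD119) and 28S-4588 (SNORD91A and SNORD91B) had differences of -0.418, -0.151 and -0.131 with wide intervals. 28S-4469, a site that the deposited list gives no numbered guide and whose yeast counterpart is methylated by the stand-alone enzyme Spb1, scored 0.99 and 0.993 with FBLTri and 0.99 and 0.992 with wild-type FBL. Its difference of 0.000534 had a 95% interval of -0.0118 to 0.0129, the smallest difference among sites with a score above 0. Sites with 1 guide were lower in 56 of 75 cases and sites with 2 or more guides in 19 of 31, with medians of -0.0877 and -0.0661, beside 75 of all 106 guided sites (70.8%), and the 2 kinds were not tested against each other.

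The size of each difference was set beside the loss on FBL knockdown in the libraries without a vector. The differences share no library with that loss, but the calls do, through the shared spread of the fit. Of 24 sites that lost at least 0.2 there, 19 were lower with FBLTri than with wild-type FBL, with a median of -0.166. The counts were 17 of 22 (median -0.113) at a loss of 0.1 to 0.2, 18 of 24 (median -0.0617) at 0.05 to 0.1, and 21 of 50 (median -0.0215) at a smaller loss or a gain. Across the 120 sites the slope through 0 was 66.4% of the loss, with a Pearson r of 0.63, given as a description because sites are not independent and share libraries. The slope was 82.8% over the 47 sites of 18S and 62.4% over the 71 of 28S. Sites off this line included 28S-2388 and 28S-2848, which differed by more between FBLTri and wild-type FBL than they had lost, and 28S-2402, held at 0 in all 4 libraries. The column names of the libraries without a vector carry other shFBL numbers than those with one, and no label says if these are different hairpins.

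**Figure D5:**
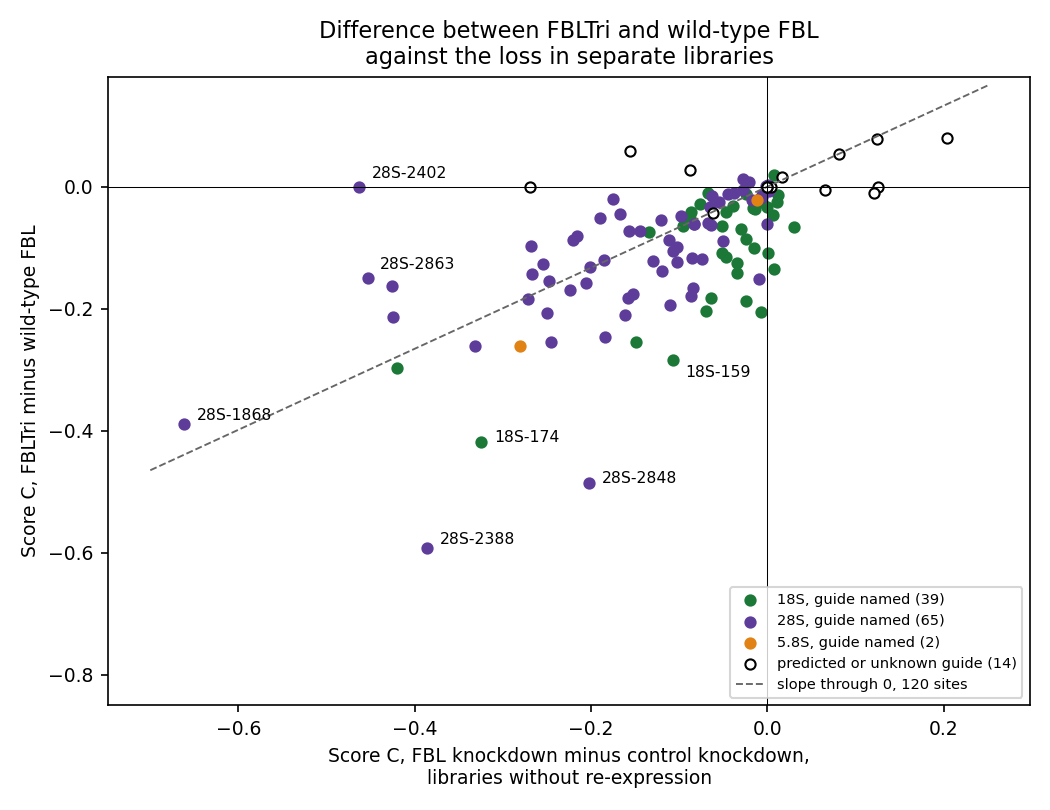
Difference in score C, FBLTri minus wild-type FBL (vertical axis), against the change on FBL knockdown in libraries without re-expression (horizontal axis), 1 point per site. Colours mark 18S, 28S and 5.8S sites with a named guide, open points are the 14 sites with a predicted or unknown guide, and the dashed line is the slope through 0 of 66.4%. Sites that lost more on knockdown lie lower, with 28S-2388 and 28S-2848 below the line.

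FBLTri was also set against FBL knockdown with an empty vector. This comparison uses the same FBLTri libraries, so its values are given side by side with those above. Relative to empty vector 24 sites (20%) were lower with FBLTri and 20 (16.7%) higher by limma, 14 lower and 4 higher in 18S and 10 lower and 16 higher in 28S. The mean over sites was 0.715 ± 0.000539 with FBLTri and 0.721 ± 0.00885 with empty vector (SD, n = 2 each). Mean scores of FBLTri cells thus lay near those of cells with the empty vector, while single sites lay on either side. FBL knockdown libraries without a vector had a higher mean, 0.784.

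18S-159 showed the pattern of the lower sites, at 0.662 and 0.65 with FBLTri and 0.842 and 0.856 with empty vector, a difference of -0.193 (adjusted p = 6.98e-06 by limma). The differences from empty vector were -0.206 at 28S-2848, -0.165 at 18S-116, -0.158 at 18S-799, -0.153 at 18S-99, -0.125 at 18S-797, -0.120 at 18S-1442 and -0.123 at 28S-2388. At the higher 28S sites named here the FBLTri mean lay between those of empty vector and wild-type FBL. 28S-1313 had 0.768 and 0.791 with FBLTri, 0.925 and 0.919 with wild-type FBL and 0.571 and 0.510 with empty vector, a difference of 0.238 from empty vector (adjusted p = 3.27e-05 by limma). 28S-1509, whose guide SNORD2 lies in EIF4A2, had 0.822 and 0.817 with FBLTri, 0.899 and 0.916 with wild-type FBL and 0.619 and 0.640 with empty vector. Both sites were thus higher with FBLTri than with empty vector and lower than with wild-type FBL. The difference from empty vector was 0.190 at 28S-1509, 0.193 at 28S-2863, 0.153 at 28S-1327 (SNORD104), 0.115 at 28S-3703, 0.1 at 28S-2411 (SNORD6) and 0.0948 at 28S-4198 (SNORD58 guides). 18S-1410, with an unknown guide, lay above both groups, at 0.484 and 0.470 with FBLTri, 0.417 and 0.427 with wild-type FBL and 0.325 and 0.396 with empty vector. Of the 16 sites named by rule in this comparison only 18S-116 and 28S-1313 kept their call in every alternative. On a logit scale 10 sites remained, 5 lower and 5 higher.

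The SNORD50A pair split in this comparison. 28S-2848 was lower with FBLTri than with empty vector, at 0.172 and 0.172 against 0.344 and 0.411, whereas 28S-2863 was higher, at 0.244 and 0.276 against 0.0615 and 0.0722. Against wild-type FBL both had lower scores, the call of 28S-2863 depending on single libraries as given above. The adjusted p-values by limma against empty vector were 0.0323 and 0.0152, and neither call was kept in every alternative.

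Against the other mutant, FBLQua, 6 sites (5%) were lower with FBLTri and 4 (3.33%) higher. The lower ones were 18S-799 (-0.0950), 28S-3878 (-0.0620), 18S-159 (-0.0613), 18S-1442 (-0.0594), 18S-99 (-0.0539) and 18S-166 (-0.0461). The higher ones were 28S-1313 (0.0846), 28S-1509 (0.0749), 28S-2411 (0.0391) and 18S-1031 (0.0208, guides SNORD59A and SNORD59B). At 18S-799, FBLTri libraries had 0.731 and 0.728 and FBLQua libraries 0.804 and 0.845. At 28S-1313, FBLTri libraries had 0.768 and 0.791 and FBLQua libraries 0.693 and 0.696. The groups were apart at both sites, but 0 of the 10 calls was kept in every alternative, and leaving out replicate 1 or 2 of FBLTri left 0 sites called by limma. Leaving out replicate 1 or 2 of FBLQua left 2 and 1.

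Against control knockdown cells with empty vector, whose FBL was not targeted, 85 sites (70.8%) were lower with FBLTri and 1 (0.833%), 18S-1410 with an unknown guide, was higher. Without replicate 2 of these control cells 84 were lower and 1 higher, and with library medians made equal 31 were lower and 51 higher. 28S-2388 had 0 and 0 with FBLTri, against 0.928 and 0.907 in these cells, and 28S-2848 had 0.172 and 0.172, against 0.859 and 0.856 in these cells. Both also lay below this level with wild-type FBL, at means of 0.593 and 0.657, so the difference between FBLTri and wild-type FBL at these sites is part of a larger gap to control cells.

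Outside the deposited list, 365 rRNA positions were tested in the same way, from scores computed from the counts. They had no listed site within 6 nucleotides, a mean flanking count of at least 100 in each knockdown library and a mean score of at least 0.5. By limma 1 position (0.274%) was called, and 1 had an unadjusted p under 0.05. That share is far below the 0.05 that a calibrated test would give without any difference, so the test was conservative here. The lack of further calls therefore does not show that the other positions were equal. The median difference was 0.00216. The called position, 28S-3606, scored 0.479 and 0.476 with FBLTri, against 0.847 and 0.853 with wild-type FBL. Its difference of -0.372 (SE 0.0277, 95% interval -0.434 to -0.311, adjusted p = 2.06e-05 by limma) lies between those of 28S-1868 and 18S-1447. The next lowest of the 365 was -0.110 and the highest 0.1795, neither of them called.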

How the data were processed

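Per the labels' protocols, total RNA was hydrolysed in alkali to fragments of about 30 nucleotides for RiboMethSeq. The submitters' processing notes name cutadapt and Bowtie2, with versions not given in the sources used here. Raw end counts per rRNA position were deposited by the authors, as was score C, a fraction from 0 to 1, for 120 sites. Recomputed from the counts (read 1 position after the site, weights of 1 to 0.5 over 6 positions on either side, set to 0 where negative), it equalled the deposited score in 2280 of 2280 pairs within 1e-09. Counting intervals are analytic.

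Groups came from the titles. limma 3.58.1 (R 4.3.3) was fitted to score C of the 14 knockdown libraries (7 groups of 2) with a variance trend, two-sided, with Benjamini-Hochberg adjustment over the sites at 0.05, and was tested on simulated data. Chi-square tests found no replicate pair equal within sampling noise.

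Sites named and site lists were chosen with earlier results of these data known. Named are the 25 largest called differences, the 5 smallest not called with ties, up to 4 members of each list, 18S-1447, 28S-4469, every site called against FBLQua and the 8 largest in each direction against empty vector, of which 1 is not reported here. Genes containing the guides came from the RefSeq gene table of GRCh38.p14 (148 of 162 guide names matched). Sites were not grouped by methylated base, which the files do not name. Alternatives were a fit of only the compared groups, no variance trend, a logit scale, flanks of 2 positions, scores not set to 0, filters on flanking counts, equal library medians, a replicate block, predicted guides left out and single libraries left out. Scaling to unlisted positions was added after seeing the data. Python 3.11.15, numpy 2.4.6, pandas 2.3.3, scipy 1.17.1 and matplotlib 3.10.9 were used.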

Additional observations from a re-analysis of the deposited data

Results flagged for a closer look

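One signal lay outside the deposited sites. 28S-3606 is not among the 120 listed positions and has no listed site within 6 nucleotides, yet its score was lower with FBLTri than with wild-type FBL, a difference of -0.372 (limma, adjusted p = 2.06e-05). Next to it, 8984 and 9359 fragments ended with FBLTri, where the flanks averaged 17258 and 17850, and 3024 and 2563 with wild-type FBL, where the flanks averaged 19772 and 17435. The score was 0.572 and 0.604 with FBLQua, 0.658 and 0.634 with empty vector, and 0.984 and 0.991 in control knockdown cells with empty vector. Without a vector it was 0.805 and 0.792 after FBL knockdown and 0.956 and 0.966 after control knockdown, and in the 5 SNORD127 libraries it lay between 0.944 and 0.957. The call was kept at a flanking count of at least 500, at a mean score of at least 0.7 and without each of the 4 libraries. What protects this position from hydrolysis was not tested.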

How the results depend on the processing

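The 75 sites called against wild-type FBL became 53 (of 68 sites with flanking counts of at least 100) to 79 under the other alternatives, all of them lower except under equal library medians (24 lower, 42 higher) and without wild-type FBL replicate 2 (64 lower, 1 higher). Leaving out a library gave 63 to 67, where the lone sample of a group is assumed to vary like the other groups. Making the medians of unlisted positions equal gave 40, all lower, 39 of them among the 75, and 82 in a fit of the compared groups alone; the cause of the lower count was not tested. With the replicate number as a block (replicate block) 75 sites were called, 5 against FBLQua, 37 against empty vector and 87 against control cells. The labels do not say what a number marks, the correlation of same-numbered deviations between FBLTri and wild-type FBL was 0.27 over 2 pairs, and the samples share only a number. The mean difference stayed between -0.104 and -0.0925, with p = 0.333 by exact permutation throughout. The slope on the knockdown loss was 61.9% with scores not set to 0, 63.3% over the 76 sites with no listed neighbour, and 61.3 to 68.2% with each library left out, lowest without FBL knockdown replicate 1. Without control knockdown with empty vector replicate 2, 75 sites were called against wild-type FBL, 38 against empty vector and 7 against FBLQua. Against empty vector, 44 calls became 10 on a logit scale, 8 with equal medians of unlisted positions and 28 to 30 with a library left out. Against FBLQua, 10 became 1 with the compared groups alone, 0 on a logit scale (limma), 6 with equal library medians, 0 to 2 with a library left out, and 0 with equal medians of unlisted positions in either fit. Against control cells, 86 became 54 with equal medians of unlisted positions and 35 with the compared groups alone as well. Under equal library medians the difference from wild-type FBL turned positive at 15 of the 67 sites named by rule that were called in the main fit or in this one. Other sites that turned positive, called in neither fit or outside that rule, were not counted. The 15 were 18S-121 (0.0712), 18S-172 (0.0850), 18S-462 (0.0308), 18S-517 (0.0826), 18S-1031 (0.0559), 18S-1288 (0.0549), 18S-1328 (0.0112), 18S-1391 (0.0227), 28S-1509 (0.00926), 28S-1511 (0.0351), 28S-2350 (0.00944), 28S-2411 (0.0235), 28S-2824 (0.0424), 28S-3804 (0.00870) and 5.8S-14 (0.0747). Of 1534 values of sites named by rule in the alternatives, 1289 kept a call with its direction or were called in neither fit, whatever their direction. Another 204 lost the call, 26 gained it and 15 reversed with a call in at least 1 of the fits. At the 23 sites with a counting half-width above 0.05, which reached 0.276 at 28S-1339, differences larger than 0.05 can also go undetected.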
